A study of Mus musculus with 8 samples.

Results

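A set of 5 matrix genes of the ID8-OR transcriptome are described here together with the rows that overlap their exons on the other strand: Fn1 with Apol7d, Tnc with 8030451A03Rik, Nid1 with Gm48682, Mmp24 with BC029722, and P3h2 with Gm4524. These 10 rows were taken by symbol from the 54146 rows of the deposited count table. The set was chosen by earlier results of the same libraries, in which the Fn1 and Tnc pairs stood out when the combination was compared with DMSO. Values of that comparison are therefore given as a description, with no test. ID8-OR is an olaparib-resistant form of ID8, a mouse ovarian cancer line, and its resistance is common to every group. Cells were kept for 72 hours with DMSO (the solvent control), with olaparib (a PARP inhibitor), with EZM8266 (an inhibitor of the histone methyltransferases EHMT1 and EHMT2) or with olaparib and EZM8266 together, called the combination. Each group has 2 libraries. The labels give no dose, and do not say whether the replicates were separate cultures, and p-values therefore reflect library-to-library spread that may be purely technical. Combination replicate 2 carries EZM8267 in its treatment label and was placed by its title.

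The extracellular matrix is a network of secreted proteins that cells adhere to, pull on and remodel, and in ovarian cancer it takes part in the attachment of tumour cells to the peritoneal lining. Fn1 encodes fibronectin, a glycoprotein that integrins assemble into fibrils. Tnc encodes tenascin-C, a glycoprotein that modulates adhesion to fibronectin and is abundant in tumour stroma. Nid1 encodes nidogen, which links laminin and collagen IV in basement membranes. Mmp24 encodes a membrane-anchored matrix metalloproteinase, and P3h2 encodes a prolyl 3-hydroxylase that modifies collagen chains, collagen IV among them. EHMT1 and EHMT2 place the repressive methyl marks on lysine 9 of histone H3, and PARP enzymes act at DNA breaks.

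The strand on which the table counts decides what each row reads. The library kit marks strand so that the first read of a pair lies opposite to the transcript, while the table, per its header, took fragments with the first read on the annotated gene's own strand. A row therefore mostly holds fragments from RNA of the other strand within its exons. Rows sharing at least 50 exon bases with a gene of the other strand were 15.2% of all rows and took 83.8 to 88.6% of the counts. In this reading the Apol7d row lies on the strand of Fn1 transcripts, 8030451A03Rik on that of Tnc, Gm48682 on that of Nid1 and Gm4524 on that of P3h2. For the pair at Mmp24 the BC029722 row lies on the strand of Mmp24 transcripts, and the Mmp24 row lies on the strand of BC029722 transcripts. Where in a row its fragments lie was not measured, so a count can come from exon bases outside the overlap.

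The shared bases differ in kind between the pairs (GENCODE M21 annotation, mm10). Fn1 (chromosome 1, 71585520 to 71653200, minus strand) and Apol7d, annotated as antisense (71652837 to 71662843), start head to head and share 292 bases of the first Fn1 exon, 146 of them coding and 146 in the 5′ UTR. Tnc (chromosome 4, 63959785 to 64047015, minus strand) shares 176 coding bases of its exon 14 with 8030451A03Rik, a processed transcript (63979854 to 64149924). Nid1 (chromosome 13, 13437551 to 13512269, plus strand) shares 143 coding bases of its exon 8 with Gm48682, annotated as antisense (13474343 to 13482405). Mmp24 (chromosome 2, 155775342 to 155818366, plus strand) meets the protein-coding gene BC029722 (155817730 to 155819426) tail to tail, with 637 shared bases that are 3′ UTR in both. P3h2 (chromosome 16, 25959288 to 26105784, minus strand) shares 1055 bases at the end of its 3′ UTR with Gm4524, annotated as antisense (25956475 to 25960342). The overlap is 49.0% of the exon bases of the Gm4524 row, 39.4% of BC029722, 13.96% of Apol7d, 11.8% of Gm48682 and 4.31% of 8030451A03Rik. The last of these rows is therefore the one with the least of its exon length inside exons of the matrix gene.

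The coding exon stretches that pass through an overlap are shown because they hold the matrix gene coding bases that the opposite-strand rows can count. Each is written 5′ to 3′ on the strand of the matrix gene, from the GENCODE M21 transcripts on mm10, with capitals for the bases that also lie in an exon of the opposite-strand row. The Fn1 stretch is the coding part of exon 1, chr1:71652832-71652982, and begins at the start codon. The Tnc stretch is exon 14, chr4:63982651-63982923, where an intron of 8030451A03Rik leaves the middle unshared. The Nid1 stretch is exon 8, chr13:13482018-13482263. The shared bases of Mmp24 and P3h2 are untranslated and are not printed.
Fn1 exon 1: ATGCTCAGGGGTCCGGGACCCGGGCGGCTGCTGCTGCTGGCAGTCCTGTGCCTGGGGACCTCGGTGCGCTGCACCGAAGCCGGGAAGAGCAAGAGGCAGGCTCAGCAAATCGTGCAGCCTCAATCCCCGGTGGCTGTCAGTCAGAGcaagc
Tnc exon 14: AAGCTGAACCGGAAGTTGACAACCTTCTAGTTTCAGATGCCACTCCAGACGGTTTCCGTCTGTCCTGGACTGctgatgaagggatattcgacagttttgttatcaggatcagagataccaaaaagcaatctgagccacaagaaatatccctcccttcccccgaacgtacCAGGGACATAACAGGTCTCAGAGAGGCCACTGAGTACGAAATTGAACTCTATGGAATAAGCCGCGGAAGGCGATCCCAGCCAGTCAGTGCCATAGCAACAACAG
Nid1 exon 8: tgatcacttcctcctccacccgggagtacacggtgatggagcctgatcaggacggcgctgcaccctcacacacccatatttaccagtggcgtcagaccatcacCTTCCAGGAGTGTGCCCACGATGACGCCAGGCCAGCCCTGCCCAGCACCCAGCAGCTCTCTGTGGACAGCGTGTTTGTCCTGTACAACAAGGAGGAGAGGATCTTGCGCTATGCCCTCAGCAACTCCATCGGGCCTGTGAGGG

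**Figure D1:**
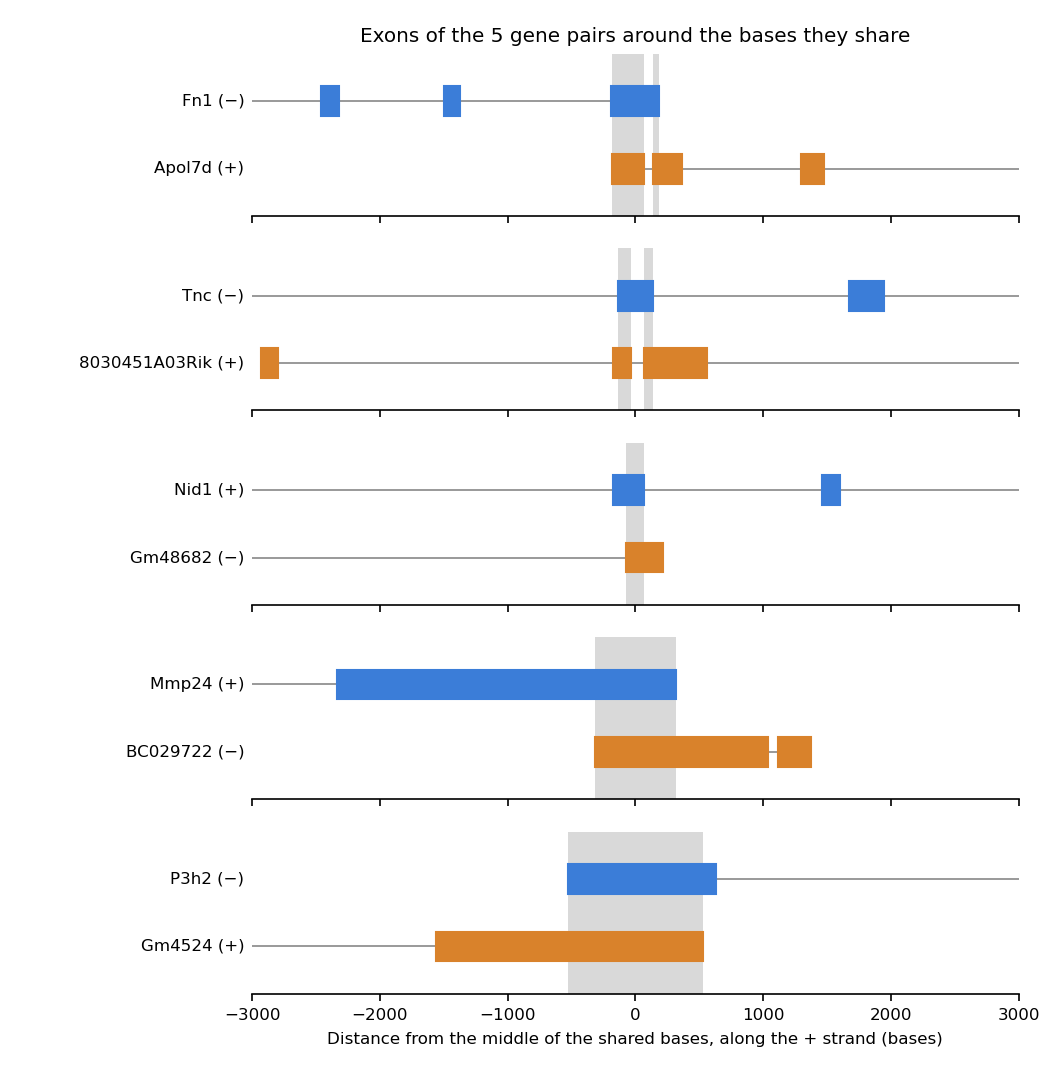
Exons (boxes) of the 5 matrix genes (blue) and of the rows on the opposite strand (orange), with introns as lines, in a window of bases around the middle of the shared bases (grey), and with the strand of each in parentheses. Fn1 and Apol7d share 292 bases at their starts, whereas Mmp24 with BC029722 and P3h2 with Gm4524 share 637 and 1055 bases at their ends.

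Libraries held 973382 to 1680974 counts, from 19743299 to 30329847 fragments of which 4.54 to 5.40% were assigned to genes. A floor of 3 counts was 1.78 to 3.08 CPM, which are counts relative to the library total. DMSO replicate 1 and olaparib replicate 2 stood apart, with 2.25% and 1.86% of their counts in the Gm10800 row against 0.0706 to 0.439% in the other 6 libraries, and results that change without this pair are given both ways. Strand leakage, measured as the percent of counts at the Rmrp and Ccdc107 locus that the Rmrp row took, was 1.04 to 1.55% in the libraries with EZM8266 and 1.24 to 1.68% in those without. Libraries with EZM8266 carry the sample numbers 33 to 36 and those without 41 to 44, so an effect of that numbering and of EZM8266 cannot be told apart. Counting error and floors cover counting only, since the reads carry no molecular identifiers.

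Markers of the labelled cell type were read from their own rows, on the leaked strand. Of 11 epithelial and ID8 markers, 6 had over 3 counts in every library, with a summed level of 166 to 240 CPM without EZM8266 and 121 to 223 CPM with it; Epcam, Cdh1 and Krt7 had at most 1 count in any library. The 4 endothelial markers summed to 0.618 to 3.79 CPM without and 1.81 to 4.64 CPM with EZM8266. Of 7 leukocyte markers, Itgam, Cd3e and Adgre1 had 0 counts in every library and Csf1r made up most of the sum of 74.2 to 104 CPM without and 91.5 to 107 CPM with EZM8266. The 8 fibroblast markers summed to 109 to 143 CPM without and 47.3 to 158 CPM with it, with Pdgfrb at 0 in every library and Col1a1 the sole one over 3 counts in every library. The part of other cell types in the results below was not tested, and in bulk RNA fewer cells of a type and less RNA per cell cannot be told apart.

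In each pair one row held most of the counts. The Fn1 row held 6.16 to 16.5% of the counts of its pair, the Tnc row 0 to 23.4%, the Nid1 row 0 to 8.33% and the P3h2 row 0 to 2.04%. The Mmp24 row held 94.8 to 98.9%, so in that pair it is the strand of BC029722, not that of Mmp24, that dominated. The overlap with BC029722 is 13.6% of the exon bases of the Mmp24 row, and how many of its fragments lie there was not measured. Per kilobase of exon, the mean level over the 8 libraries was 286 CPM for Apol7d and 6.90 CPM for Fn1. It was 189 CPM per kilobase for Gm4524, 86.1 for Mmp24, 20.1 for Gm48682, 8.56 for BC029722 and 3.92 for 8030451A03Rik. Apol7d, Gm4524 and Mmp24 kept this order in every library, although the per-kilobase ranges of Apol7d (229 to 340 CPM) and Gm4524 (158 to 232 CPM) met. Gm48682 (10.4 to 34.5 CPM per kilobase) lay above BC029722 (2.60 to 15.2) in all 8 libraries. The Fn1 row (3.23 to 11.0) lay above BC029722 in the 4 libraries without EZM8266 and below it in the 4 with it.

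Differences were fitted with edgeR's quasi-likelihood test over all 6379 rows that passed a filter on low counts. Calls needed an adjusted p (Benjamini-Hochberg, over all of these rows) under 0.05. Of the 10 rows, 7 passed the filter. The Tnc, Nid1 and P3h2 rows did not. BC029722 passed through the libraries with EZM8266: all 4 of them reached the level the filter asks for, 8.65 CPM, and none of the 4 without did. It therefore had to differ to be tested, and counts over the 7 tested rows carry no weight of their own. The average differences below use the combination and DMSO libraries, which were known when the set was chosen. Their adjusted p-values are therefore given as a description for every member. Levels below are TMM-scaled CPM.

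The widest separation was on the strand of Mmp24. The BC029722 row had 5 and 7 counts under DMSO, 12 and 8 under olaparib, 30 and 20 under EZM8266 and 25 and 22 under the combination. Levels were 4.48 ± 0.39 CPM (SD, n = 2) under DMSO, 7.45 ± 1.597 under olaparib, 20.7 ± 1.92 under EZM8266 and 22.7 ± 2.57 under the combination. The Mmp24 row held 98.7 and 98.9% of the counts of the pair under DMSO and 97.7 and 98.1% under olaparib. With EZM8266 it held 94.8 to 96.4%. Strand leakage was 1.24 and 1.68% under DMSO, 1.53 and 1.42% under olaparib, and 1.04 to 1.55% with EZM8266. How much of the low BC029722 counts was leakage was not tested. All 4 libraries with EZM8266 lay above all 4 without, and the groups did not overlap. Averaged over both backgrounds, without and with olaparib, the row differed by 1.89 ± 0.30 (SE) on the log2 scale, a 3.72-fold difference, higher in 4 of 4 libraries. Its edgeR adjusted p of 0.0111 rests on a row that had to differ to enter the test, in an average that includes the combination and DMSO libraries known beforehand, and is given as a description. With no low-count filter the row enters whatever its groups show, but the libraries known beforehand stay in. The difference was then 1.91 (edgeR adjusted p 6.10e-05), while calls over the whole table rose from 42 to 83, so this too is a description. Over all 15 alternatives the difference ran from 1.79 to 2.02. The row was the single member of the 7 tested under the threshold, against 0.658% of all rows tested (42 of 6379). Without DMSO replicate 2 the adjusted p was 0.0520, without olaparib replicate 2 it was 0.0618, and with DMSO replicate 1 and olaparib replicate 2 both left out it was 0.156, with log2 differences of 1.84, 1.79 and 1.83.

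On the other strand of the same locus, the Mmp24 row had 378 and 612 counts under DMSO, 501 and 421 under olaparib, 542 and 530 under EZM8266 and 488 and 440 under the combination. Its levels were 364 ± 5.33, 346 ± 18.03, 456 ± 80.6 and 447 ± 43.04 CPM in that order (SD, n = 2). The lowest library with EZM8266, at 399 CPM, lay above the highest without, at 367 CPM. The average difference was 0.35 ± 0.10 on the log2 scale and was not called (edgeR adjusted p 0.255). Over 15 alternatives the difference was 0.26 to 0.42 and the adjusted p 0.0435 to 0.913, under the threshold in 1 of them, without EZM8266 replicate 1, the lowest library of the 4. As the row lies on the strand of BC029722 transcripts, it gives no level of the metalloproteinase. The nearest tested row beyond the pair, Eif6, starts 406 bases after it and overlaps exons of Gm16098 on the other strand. The Eif6 row averaged only 10.4 counts per library and differed by 0.06 ± 0.39 (edgeR adjusted p 0.991).

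On the strand of Nid1, the basement membrane linker, the libraries with EZM8266 lay above the others, also without a call. The Gm48682 row had 15 and 21 counts under DMSO, 23 and 22 under olaparib, 52 and 25 under EZM8266 and 30 and 44 under the combination. Levels were 13.4 ± 1.18 CPM under DMSO, 16.9 ± 0.67 under olaparib, 31.2 ± 9.94 under EZM8266 and 35.5 ± 8.71 under the combination (SD, n = 2). The groups did not overlap, with 24.2 CPM the lowest with EZM8266 and 17.4 CPM the highest without. The average difference of 1.15 ± 0.24 on the log2 scale had an edgeR adjusted p of 0.0520. It passed with RLE scaling (0.0454), with no low-count filter (0.00413), with a filter of 1 CPM (0.0182), with leakage as a covariate (0.00549) and without EZM8266 replicate 2 (0.0189). It did not in the other 10 of 15 alternatives, with adjusted p up to 0.380 and differences from 0.95 to 1.30 over all 15. The Nid1 row had 0 to 4 counts per library and was not tested.

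On the strand of fibronectin the libraries with EZM8266 lay below the others, without passing the threshold. The Apol7d row had 716 and 1185 counts under DMSO, 862 and 860 under olaparib, 693 and 594 under EZM8266 and 489 and 569 under the combination. In CPM, which corrects for depth, these were 697 ± 21.0, 648 ± 44.8, 542 ± 45.9 and 509 ± 42.7 (SD, n = 2). The highest library with EZM8266, at 574 CPM, lay below the lowest without, at 616 CPM. The average difference, a description for this pair chosen beforehand, was -0.36 ± 0.09 on the log2 scale and was not called (edgeR adjusted p 0.130). Over 15 alternatives the adjusted p ran from 0.00549 to 0.747, under the threshold in 1 of them, with leakage as a covariate (-0.40). The overlap of 292 bases is small beside the row, which extends upstream of the Fn1 start, and how much of this difference lies in Fn1 itself was not measured.

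The Fn1 row itself showed no such separation. It had 80 and 214 counts under DMSO, 109 and 103 under olaparib, 137 and 39 under EZM8266 and 65 and 83 under the combination. Levels ran from 37.7 CPM (EZM8266 replicate 2) to 128 CPM (DMSO replicate 2), and the libraries with and without EZM8266 overlapped. The average difference was -0.36 ± 0.24 (edgeR adjusted p 0.855). Across the 8 libraries its log2 CPM and the log2 of strand leakage had a Pearson's r of 0.83. The exact permutation p was 0.0155, and 0.0619 adjusted over the 4 member rows compared. All permutations here ran across the treatment groups, so they cannot separate leakage from treatment. Spearman's rho was 0.69 (exact permutation p 0.0694, adjusted 0.278). Without EZM8266 replicate 2 and combination replicate 2, the libraries farthest from the median leakage, r was 0.68. Within the libraries with or without EZM8266 alone, 4 points are too few for a value. Among the other 3 rows r was 0.15 for Apol7d (exact permutation p 0.715), 0.33 for Gm4524 (0.420) and -0.55 for Mmp24 (0.180). Their rho was 0.14, 0.26 and -0.36 (exact permutation p 0.752, 0.536 and 0.389), and without the same pair of libraries r was -0.07, -0.17 and 0.07. With leakage as a covariate the Fn1 row's difference changed sign in the combination against olaparib (from -0.16 to 0.13) and in EZM8266 against olaparib (from -0.17 to 0.08).

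**Figure D2:**
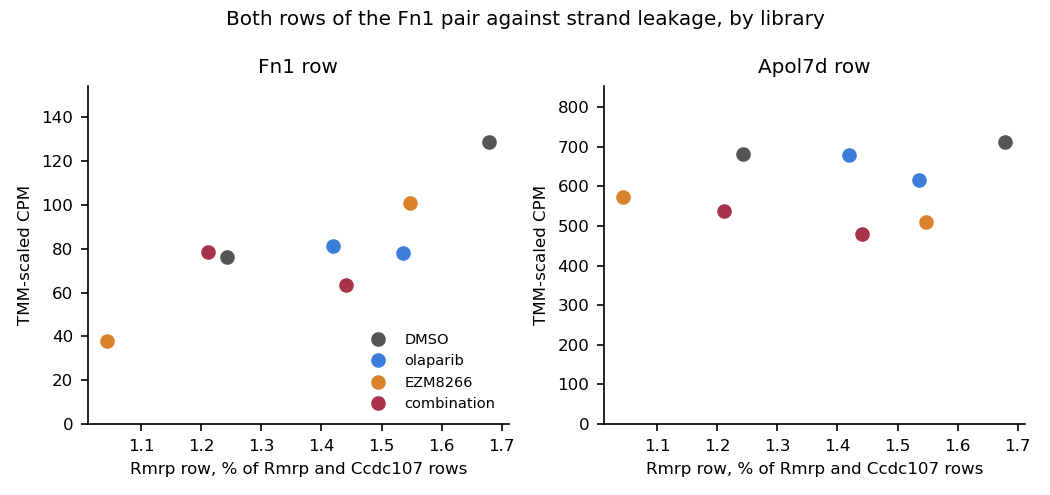
TMM-scaled CPM of the Fn1 row (left) and of the Apol7d row (right) against strand leakage in percent, 1 point per library, coloured by group. Points of the Fn1 row run from 37.7 CPM at 1.04% to 128 CPM at 1.68%, while in the Apol7d panel the points with EZM8266 lie below those without.

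Counts on the strand of tenascin-C were few. The 8030451A03Rik row had 24 and 36 counts under DMSO, 26 and 28 under olaparib, 15 and 13 under EZM8266 and 10 and 10 under the combination. Levels were 22.2 ± 0.87, 20.4 ± 2.50, 11.8 ± 1.09 and 9.63 ± 0.22 CPM (SD, n = 2). The highest of the libraries with EZM8266 was 12.6 CPM and the lowest without was 18.6 CPM. The average difference, a description for this pair chosen beforehand, was -0.99 ± 0.26 on the log2 scale (edgeR adjusted p 0.185). Only 4.31% of the row lies in Tnc exons. Inside the 8030451A03Rik gene lies Gm11216, a row with no opposite-strand exon recorded (chromosome 4, 64075533 to 64083814), with 0 and 5 counts under DMSO, 1 and 1 under olaparib, 13 and 18 under EZM8266 and 14 and 14 under the combination. That row too entered the test through the libraries with EZM8266, so its counts are given as a description, with no test. The Tnc row had 0 to 1 count in 7 libraries and 11 in DMSO replicate 2.

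On the strand of P3h2, the collagen hydroxylase, the Gm4524 row had 503 and 731 counts under DMSO, 699 and 545 under olaparib, 481 and 359 under EZM8266 and 347 and 386 under the combination. Levels were 459 ± 28.3, 465 ± 48.8, 350 ± 4.61 and 353 ± 18.4 CPM (SD, n = 2). The 4 libraries with EZM8266 lay between 340 and 366 CPM, and the 4 without between 431 and 500 CPM. The average difference was -0.39 ± 0.09 on the log2 scale (edgeR adjusted p 0.0848). Over 15 alternatives the adjusted p ran from 0.00841 to 0.504, under the threshold in 1 of them, with leakage as a covariate. Of the opposite-strand rows this one has the largest share of its exon bases, 49.0%, inside exons of the matrix gene. The P3h2 row had 0 to 10 counts per library.

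**Figure D3:**
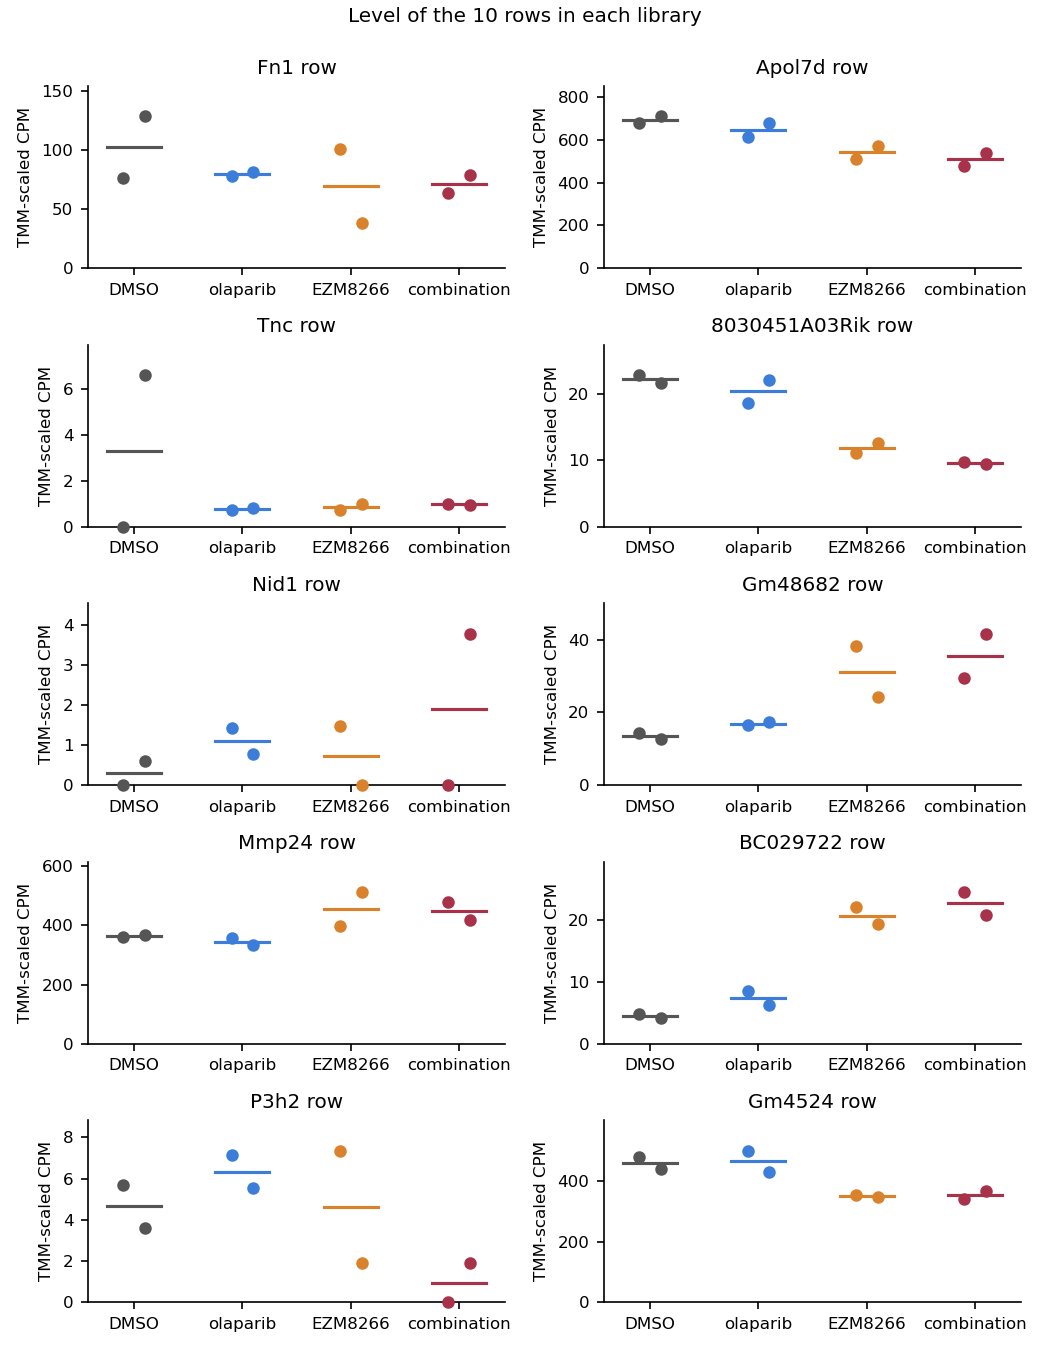
TMM-scaled CPM of each of the 10 rows by group, with 1 point per library (n = 2) and a line at the group mean, each panel on its own axis from 0. In the Apol7d, 8030451A03Rik and Gm4524 panels both groups with EZM8266 lie below the others, and in those of Gm48682, Mmp24 and BC029722 they lie higher than the others.

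Of the 7 tested rows, 6 thus had no overlap between the 4 libraries with and the 4 without EZM8266, 3 higher and 3 lower with it. Over all rows tested, 3.35% lay wholly above and 2.02% wholly below. The members were chosen with such results known, so their share carries no weight beside that background.

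Against DMSO, EZM8266 alone gave differences of 2.20 ± 0.44 for BC029722 (edgeR adjusted p 0.0928), 1.24 ± 0.35 for Gm48682 (0.406), 0.32 ± 0.14 for Mmp24 (0.854), -0.91 ± 0.36 for 8030451A03Rik (0.797), -0.39 ± 0.12 for Gm4524 (0.685) and -0.36 ± 0.12 for Apol7d (0.742). None was called, against 0.204% of rows tested. With no low-count filter, BC029722 was called (edgeR adjusted p 0.0149), while calls over the whole table rose from 13 to 42. The DMSO libraries were known beforehand and the row passed the main filter through libraries with EZM8266, so this is a description. The combination against DMSO, which shares the DMSO libraries, gave 2.33 ± 0.45, 1.41 ± 0.35, 0.30 ± 0.14, -1.19 ± 0.38, -0.38 ± 0.13 and -0.45 ± 0.12 for the same rows in the same order; 0.219% of all rows were called there.

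EZM8266 against olaparib uses the 4 libraries that the combination against DMSO does not use. The members were chosen with earlier results of these data known, and BC029722 passed the filter through libraries with EZM8266. The values are therefore a description. EZM8266 against olaparib differed by 1.46 ± 0.41 for BC029722 (edgeR adjusted p 0.576), 0.90 ± 0.33 for Gm48682, 0.40 ± 0.14 for Mmp24, -0.79 ± 0.36 for 8030451A03Rik, -0.41 ± 0.12 for Gm4524 (0.677) and -0.26 ± 0.12 for Apol7d. For the other rows listed the adjusted p was 1.00, and none of the members was called, against 0.125% of rows tested. The combination against olaparib, which shares the olaparib libraries with it, gave 1.58 ± 0.41 for BC029722 (adjusted p 0.426), 1.07 ± 0.33 for Gm48682 (0.819) and -1.07 ± 0.38 for 8030451A03Rik (1.00), and again no member was called, against 0.0941% of rows.

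Olaparib alone left the 7 rows within -0.38 to 0.74 of DMSO on the log2 scale, the highest being BC029722 (0.74 ± 0.50) and the lowest the Fn1 row (-0.38 ± 0.34). No member had an unadjusted p under 0.05. The combination against EZM8266 ran from -0.28 ± 0.41 (8030451A03Rik) to 0.17 ± 0.31 (Gm48682), also with 0 members at an unadjusted p under 0.05. The interaction of EZM8266 and olaparib ran from -0.62 ± 0.62 for BC029722 to 0.39 ± 0.49 for Fn1, and no member reached an unadjusted p under 0.05. In these 3 comparisons 0% of all rows were called by edgeR, with 117, 97 and 103 rows at an unadjusted p under 0.05, and DESeq2 called 0, 1 and 1 rows.

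**Figure D4:**
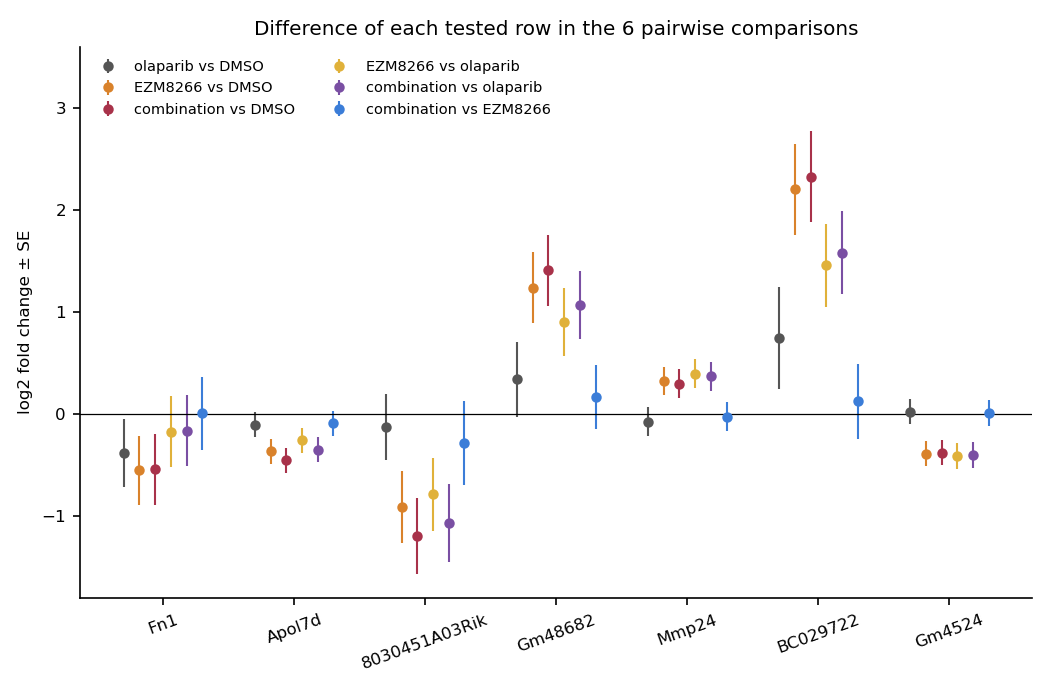
Log2 fold change with its SE (bars) of the 7 tested rows in the 6 pairwise comparisons, from 1 edgeR fit of all 8 libraries. The 4 comparisons of a group with EZM8266 against a group without lie on 1 side of 0 for each row other than Fn1 by more than their SE, from -1.19 (8030451A03Rik) to 2.33 (BC029722). In the same rows, those of olaparib alone and of the combination against EZM8266 lie nearer 0. For Fn1, olaparib against DMSO (-0.38) lies farther from 0 than EZM8266 against olaparib (-0.17).

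As a description over the 8 libraries, in which rows share depth, scaling and treatment, the rows most like each abundant member were found by Pearson's r of log2 CPM among the 1329 rows that averaged 100 counts or more. The Apol7d row was most like Gm29233, which lies on the Thbs1 strand (r 0.94; Thbs1 encodes thrombospondin 1, an adhesive glycoprotein), followed by 4932441J04Rik on the strand of Pcdh7, a protocadherin (0.90). Gm4524 was most like Fars2, a row over exons of Lyrm4 and Nrn1 (0.95), and Gpld1 on the strand of Mrs2 (0.94), with Gm29233 the third (0.91). The Mmp24 row was most like Gm14493 on the strand of Mid1ip1 (0.94) and Myo1h on that of Kctd10 (0.94), and Gm15270, on the strand of the matrix protein Ccn2, was the fourth (0.94). For Fn1 the nearest were Ybx3 (0.98), which encodes an RNA-binding protein, and Rhbdd3 (0.91), with the matrix protein Sparc the fourth (0.90). Between members, r was 0.95 for Apol7d with 8030451A03Rik and -0.96 for Apol7d with BC029722.

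The other matrix genes, 211 in 7 lists without the members, were read both ways. By their own rows, 64 were tested; the average EZM8266 effect was above 0 in 28 and below 0 in 36, with 0 called higher and 1 lower, and a median of -0.07 on the log2 scale against -0.02 for all rows. By the rows on the opposite strand, 34 were tested, with 21 above and 13 below 0, 1 called higher and 1 lower, and a median of 0.07. Both lower calls were Thbs1: its own row fell by 1.49 ± 0.22 (edgeR adjusted p 0.00555) and Gm29233 on its strand fell by 1.11 ± 0.10 (6.75e-05). The higher call was Gm27177, over exons of the lysyl oxidase gene Loxl2 and of Entpd4b (1.69 ± 0.25, edgeR adjusted p 0.00557). That average came from EZM8266 alone, with 110 and 73.5 CPM against 5.71 and 12.6 under DMSO. With olaparib present the row hardly differed, at 19.6 and 22.7 CPM under the combination against 18.6 and 19.8 under olaparib. By list, 7 opposite-strand rows of glycoproteins were tested (6 above 0), 1 of basement membrane (above 0), 2 of collagens (0 above), 2 of proteoglycans (0 above, median -0.57), 7 of proteases and their inhibitors (3 above), 9 of collagen modification and folding (6 above) and 6 of matrix receptors (5 above).

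Other abundant rows of these lists were not called. On the strand of Ccn2, a matricellular growth factor partner, Gm15270 differed by 0.29 ± 0.09 (edgeR adjusted p 0.287). The Tgm2 strand, a matrix cross-linking enzyme (Gm20412 row), differed by 0.27 ± 0.08 (0.286), and that of Timp3, a metalloproteinase inhibitor (Syn3 row), by 0.75 ± 0.22 (0.266). For Adamts9, a secreted protease, the A730049H05Rik row differed by -0.62 ± 0.15 (0.130) and Gm15737 by -0.21 ± 0.13 (0.855). Among receptors and their partners, the strands of Vcl (Ap3m1 row, 0.11 ± 0.08), Ilk (Taf10 row, 0.13 ± 0.08) and Tln1 (Creb3 row, 0.06 ± 0.18) were near 0. The median SE of the average effect was 0.11 for rows averaging 100 counts or more and 0.37 for rows under 30. The differences at Apol7d and Gm4524, themselves not called, are of about the size of that SE in thinly counted rows.

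**Figure D5:**
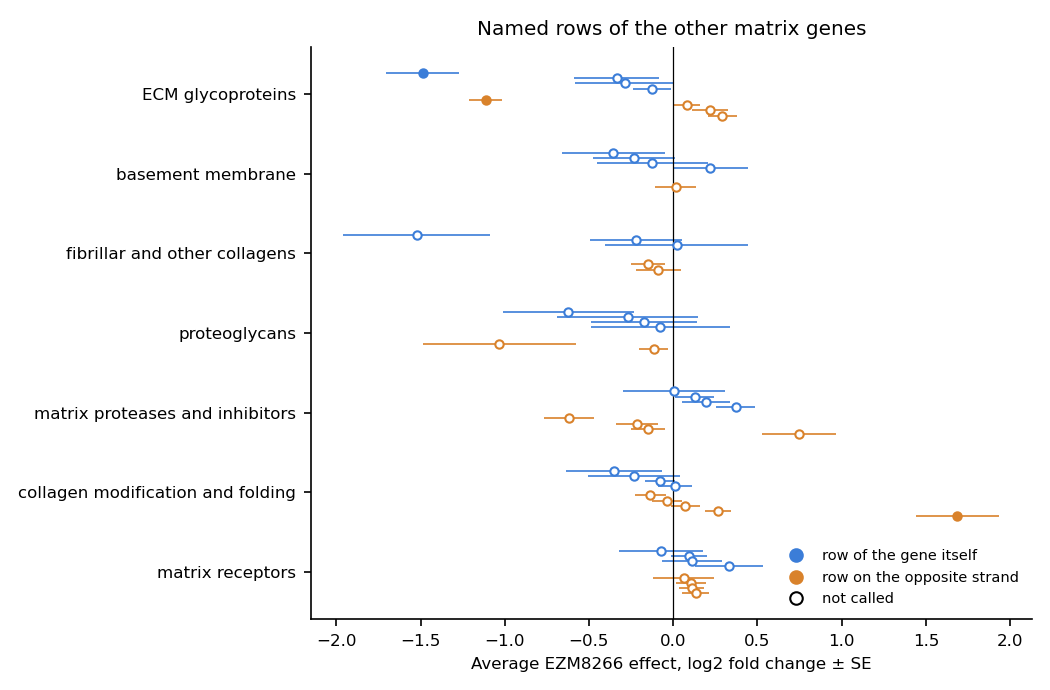
Average EZM8266 effect as log2 fold change with its SE (bars) for the named rows of 7 lists of other matrix genes, blue for the row of the gene and orange for the row on its opposite strand, filled where called. Filled points are the Thbs1 row at -1.49, Gm29233 at -1.11 and Gm27177 at 1.69, and the others are open.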

How the data were processed

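RNA of 8 libraries was sequenced. Per the file headers, the deposited values are whole-number counts of read pairs per gene, made by the authors with featureCounts 1.6.2 over GENCODE M18 exons with strand setting 1, with a fragment counted for every gene it overlapped. The submitters' processing notes name HISAT2 2.1.0 and mm10. Symbols came from GENCODE M21, which named 54079 of 54146 rows, and exon lengths were equal for all.

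The members, the gene lists and the rules for named rows were chosen with earlier results of these data known. Besides the members, the text names list rows called in any comparison, up to 4 tested rows of highest mean count per list, the 5 rows most like each member of at least 100 counts, and the rows around each pair. Those described in the text are part of this set.

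Tests used edgeR 4.0.16 in R 4.3.3 (quasi-likelihood, TMM, filterByExpr at its minimums of 10 counts and 15 in total) on all 8 libraries with 4 group means and Benjamini-Hochberg adjustment. The average EZM8266 effect is the mean of EZM8266 against DMSO and the combination against olaparib. The alternatives were DESeq2 1.42.0, RLE scaling, other filters, a replicate block, fits of the compared groups, leakage as a covariate, libraries left out, and other overlap minimums.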

Additional observations from a re-analysis of the deposited data

How the results depend on the processing

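The number of members called was 0 in EZM8266 against DMSO and became 1 with no low-count filter, with a filter of 1 CPM in 4 libraries and with leakage as a covariate, BC029722 each time. In the combination against DMSO, whose values chose the set, the count describes the settings and tests nothing: it was 0 and became 1 with no filter, 1 with the 1 CPM filter and 3 with leakage as a covariate (Apol7d, BC029722 and Gm48682). In the average EZM8266 effect it was 1 and became 2 with RLE scaling, 2 with no filter and 2 with the 1 CPM filter (BC029722 and Gm48682), 4 with leakage as a covariate (with Apol7d and Gm4524 added) and 0 without both libraries rich in Gm10800. Leaving out 1 library at a time gave 0 to 2 in that comparison: 0 without DMSO replicate 2 or olaparib replicate 2, and 2 without EZM8266 replicate 1 or EZM8266 replicate 2. The average effect includes the libraries that chose the set, so its counts also describe the settings only. The cause of these changes was not tested. The Fn1 row turned from below to above 0 in the combination against olaparib with leakage as a covariate (0.13), and in EZM8266 against olaparib with that covariate (0.084) and without EZM8266 replicate 2; with 1 library left out this value ran from -1.10 to 0.33. Of the other member differences under alternatives, 531 kept their direction and side of the threshold, 16 came past it and 3 lost it.

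Over the whole table, the calls in the average effect were 42 (38 higher, 4 lower), with 83 (56 and 27) without a filter, 85 (55 and 30) with leakage as a covariate, 16 without both libraries rich in Gm10800, and 18 to 66 with 1 library left out. For EZM8266 against DMSO, 13 calls became 42, 44, 3 and 5 to 24 in the same order, and 3 when only the compared groups entered the fit. For the combination against DMSO, 14 became 45, 60, 5 and 6 to 19. For the combination against olaparib, 6 became 42 and 39, with 10 for the compared groups alone and 4 to 14 with 1 library left out. For EZM8266 against olaparib, 8 became 31, 29, 1 and 1 to 15, and 3 for the compared groups alone. In olaparib against DMSO, 0 became 8 with no filter. In the combination against EZM8266 it became 12, and in the interaction 7. The average effect and the interaction use all 4 groups, so a fit of the compared groups alone is the same fit.

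Replicate numbers are given in the labels, which do not say that they pair libraries. With a replicate block the average effect still had 1 member called, and 39 rows were called over all rows. The deviations of same-numbered libraries correlated at -0.31, -0.32 and -0.15 between DMSO and olaparib, EZM8266 and the combination, and at 0.29, 0.22 and 0.29 between olaparib and EZM8266, olaparib and the combination, and EZM8266 and the combination. As the signs differ and the labels name no pairing, the numbers were not treated as pairs; whether some are was not settled. Counting an overlap from 1 base gave 4 tested rows for the basement membrane list in place of 1, and from 100 bases 1 row for collagens in place of 2. Depth limits rows under 30 counts most, Gm48682, BC029722 and 8030451A03Rik among them by their means.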
